A study of Mus musculus with 48 samples.

Results

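The Hox genes encode homeodomain transcription factors and lie in 4 clusters, Hoxa to Hoxd, each on its own chromosome. The genes compared here are all rows of the deposited count tables whose gene name is Hox followed by a cluster letter and a paralog number, with antisense transcripts left out. That gave 32 Hox genes of 17490 genes listed in at least 1 of the 4 tables: 11 of the Hoxa cluster, 8 of Hoxb, 7 of Hoxc and 6 of Hoxd. Hoxa genes lay on the minus strand of chr6, Hoxb on the plus strand at chr11:96271457-96354016, Hoxc on the plus strand at chr15:102954427-103036843 and Hoxd on the plus strand at chr2:74668310-74748274 (mm10). Of 39 annotated Hox genes, 6 (Hoxb1, Hoxb13, Hoxc12, Hoxc13, Hoxd1 and Hoxd12) were below the authors' limit of 10 counts in every table and 1 was not analysed here. The quadriceps table listed 30 Hox genes, tibialis anterior 32, gastrocnemius 31 and diaphragm 25, and the same 25 were in all 4 tables. A Hox gene left out of a table had at most 9 counts in each of its libraries.

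Along each cluster the genes are numbered by paralog group. Low-numbered genes are active from the head and neck level of the embryo, and high-numbered genes only toward the tail and along the limb. In the mouse limb the Hox9 and Hox10 groups pattern the upper segment, Hox11 the middle segment and Hox13 the hand and foot. The muscle cells of the diaphragm come from the neck level of the trunk, while those of the hindlimb come from the lumbar level, and connective tissue cells carry Hox transcripts as well as muscle cells.

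The libraries came from C57BL/6 mice at postnatal day 0. Myh3, the gene for the embryonic myosin heavy chain, was wild type (MyH3+/+) in one set of animals and knocked out in the other, and the deleted stretch of the gene is not named in the labels. For each genotype 6 RNA-seq libraries were made from each of 4 whole muscles, the quadriceps of the thigh, the tibialis anterior and the gastrocnemius of the lower leg, and the diaphragm, giving 48 libraries in 8 groups. The labels do not say that the 6 samples of a group were separate animals, so p-values measure the spread between these samples. Total counts per library ran from 11.9 to 24.3 in units of 1e6. The count over the whole Myh3 gene did not differ between genotypes by the test used here (edgeR, log2 −0.37 ± 0.09 in tibialis anterior, adjusted p = 0.18, and no call in the other muscles), so it does not check the genotype labels.

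The promoters of 4 Hoxa genes are shown because these neighbours on chr6 went in opposite directions between diaphragm and limb, as given further on: Hoxa2 and Hoxa5 were higher in the diaphragm, Hoxa9 and Hoxa10 in the limb muscles. Each line is the 250 bases before the RefSeq gene start on the minus strand (GRCm38.p6), with matches to the motifs searched in capitals. The windows are chr6:52164832-52165081 for Hoxa2, chr6:52204588-52204837 for Hoxa5, chr6:52227371-52227620 for Hoxa9 and chr6:52240855-52241104 for Hoxa10. The Hoxa2 and Hoxa9 windows lie within the genes as counted here, which begin at chr6:52165413 and chr6:52231089 on the minus strand. Those of Hoxa5 and Hoxa10 lie just upstream of the counted genes.
Hoxa2: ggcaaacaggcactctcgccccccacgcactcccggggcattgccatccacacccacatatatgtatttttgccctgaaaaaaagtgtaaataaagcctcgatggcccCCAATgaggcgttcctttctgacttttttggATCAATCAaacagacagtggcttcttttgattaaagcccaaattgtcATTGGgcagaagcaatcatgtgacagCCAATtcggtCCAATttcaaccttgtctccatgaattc
Hoxa5: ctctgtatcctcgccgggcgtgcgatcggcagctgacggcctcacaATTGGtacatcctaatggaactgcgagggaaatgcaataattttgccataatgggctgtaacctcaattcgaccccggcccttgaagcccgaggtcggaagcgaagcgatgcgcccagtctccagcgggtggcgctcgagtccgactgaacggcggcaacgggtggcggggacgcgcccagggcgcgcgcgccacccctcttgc
Hoxa9: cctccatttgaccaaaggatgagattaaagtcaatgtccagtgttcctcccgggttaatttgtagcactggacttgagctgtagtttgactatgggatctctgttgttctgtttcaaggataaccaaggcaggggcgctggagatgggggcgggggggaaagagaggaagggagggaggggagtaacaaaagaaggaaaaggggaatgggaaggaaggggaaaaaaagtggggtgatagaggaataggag
Hoxa10: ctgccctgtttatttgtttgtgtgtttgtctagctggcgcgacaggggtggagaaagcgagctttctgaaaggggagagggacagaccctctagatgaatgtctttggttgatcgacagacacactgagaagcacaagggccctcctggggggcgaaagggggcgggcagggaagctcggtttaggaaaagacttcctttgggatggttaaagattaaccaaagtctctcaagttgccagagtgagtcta
On both strands 5 motifs were searched: TAATTA (homeodomain core), TGATTNAT (the Pbx-Hox pair, which can overlap the homeodomain core), TTTATNG (Cdx), TATAAA (the box near many gene starts) and the CCAAT box. The capitals in Hoxa2 are 1 Pbx-Hox match and 4 CCAAT matches, the capital run in Hoxa5 is 1 CCAAT match, and the Hoxa9 and Hoxa10 windows shown have none. Outside the window shown, Hoxa10 had CCAAT and TATAAA matches among its other listed starts, so the windows do not set the 4 genes apart. RefSeq gave a promoter for 18 of the Hox genes. Over all of a gene's listed starts, CCAAT was found for 10 of these 18 against 33.9% of 32851 promoters, TATAAA for 3 against 12.4%, TGATTNAT for 2 (Hoxa2 and Hoxd11) against 2.82%, TTTATNG for 1 (Hoxb8) against 9.81% and TAATTA for 1 (Hoxd11) against 4.84%. The units differ: the Hox counts are genes with a match at any start, and the percentages are shares of single promoters. A gene with several starts had more chances of a match, so no excess can be read from these values. A match is only a run of letters, and binding was not measured.

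All 3 limb muscles were led by the same Hox gene, and the diaphragm by others. Levels are counts scaled to 1e6 counts per library (CPM), and levels of different genes are compared only after division by exon length, as CPM per kb. Hoxc10, which acts in the lumbar region and hindlimb, had the highest mean per kb of the wild-type Hox genes in quadriceps (32.6), tibialis anterior (27.1) and gastrocnemius (20.9). In the diaphragm it ranked 25 of 25, at 0.101 CPM per kb. There the first rank went to Hoxa5 at 10.4 CPM per kb, a gene needed for the neck and upper chest skeleton, followed by Hoxa4 (7.28) and Hoxc4 (5.48).

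Added up per kb, paralogs 9 to 13 made 57.3% ± 3.54 of the Hox sum in wild-type quadriceps, 65.6% ± 2.42 in tibialis anterior and 68.4% ± 3.28 in gastrocnemius, and 4.19% ± 1.31 in diaphragm (mean ± SD, n = 6 each). These shares take a gene left out of a table as 0, and with each left-out gene at 9 counts the diaphragm share was 7.36% ± 1.5. Paralogs 1 to 4 made 50.2% ± 3.84 of the diaphragm sum, and 13.8% ± 1.85, 11.8% ± 1.46 and 9.41% ± 1.13 of the quadriceps, tibialis anterior and gastrocnemius sums. The shares of diaphragm and limb libraries did not overlap for either class. Of the clusters, Hoxb took 17.8% ± 1.76 of the diaphragm sum and under that in every limb library (3.31% to 5.70%), and Hoxc took 21.3% ± 0.94 against 53.3% ± 2.01 in quadriceps, 40% ± 1.32 in tibialis anterior and 43.7% ± 1.82 in gastrocnemius. Hoxd made 4.16% ± 0.70 in quadriceps, 10.2% ± 0.93 in tibialis anterior and 17.5% ± 1.04 in gastrocnemius. In these bulk samples, fewer cells of a type and less RNA per cell cannot be told apart.

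**Figure D1:**
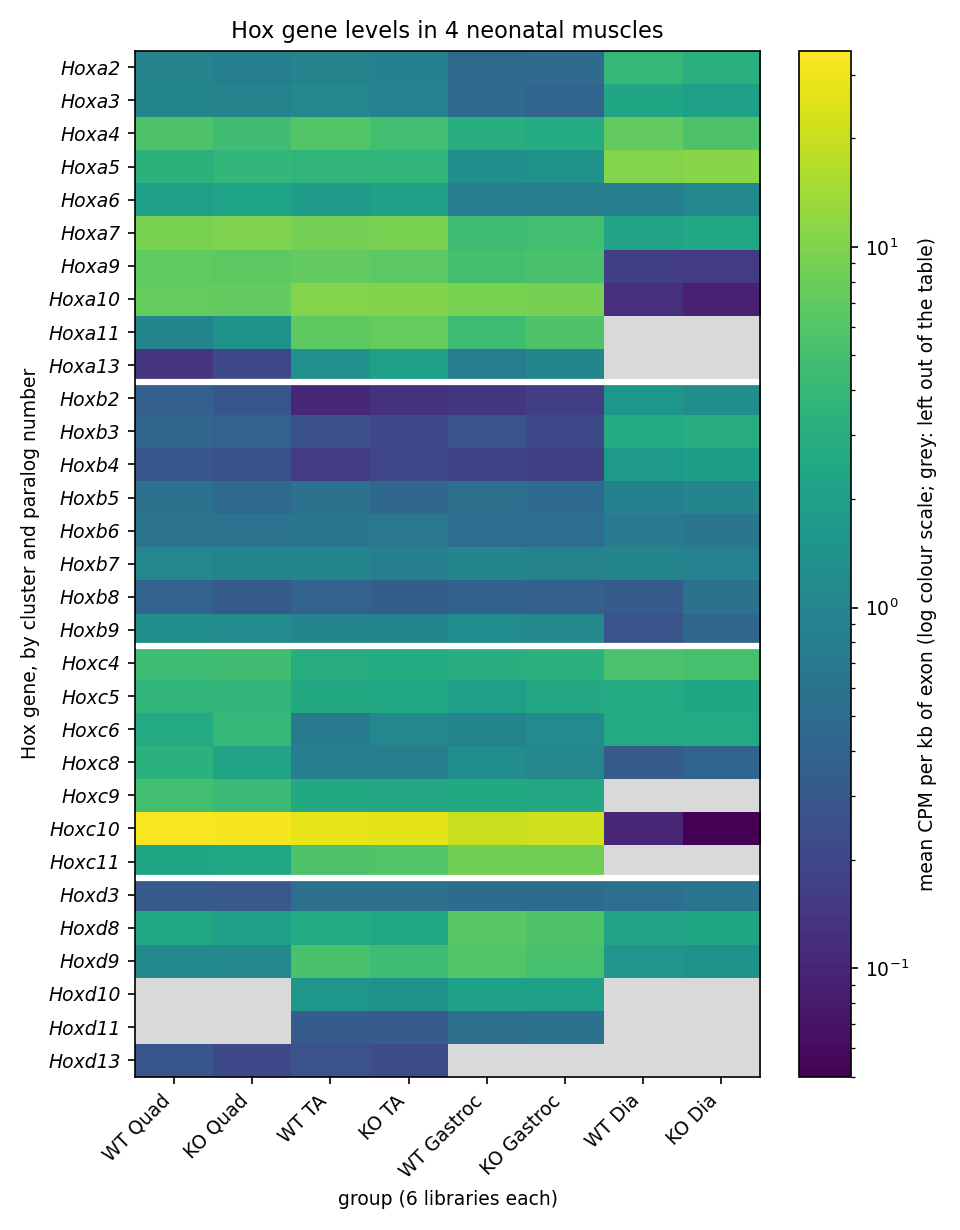
Mean level of 31 of the 32 Hox genes (rows, by cluster and paralog number) in the 8 groups of 6 libraries (columns), as CPM per kb of exon on a log colour scale; grey marks a gene left out of that table. Hoxc10 is the brightest row in the limb columns and the darkest of the genes listed in the diaphragm, where Hoxa5 is brightest.

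The first comparison set the wild-type diaphragm against the mean of the 3 wild-type limb muscles, with calls at adjusted p under 0.05 and at least a 2-fold difference. Of the 25 Hox genes in all tables, 8 were higher in the diaphragm, where 7.00% of all 14831 genes tested were, and 7 were lower, where 3.53% of all genes were. Among the higher were Hoxa2, Hoxa3, Hoxa5, Hoxb2, Hoxb3, Hoxb4 and Hoxc6. The 7 lower were Hoxa7, Hoxa9, Hoxa10, Hoxb9, Hoxc8, Hoxc10 and Hoxd9. The median log2 difference was 0.27 over the Hox genes and 0.00 over all genes. In paralogs 1 to 5, 7 of 12 were higher and 0 lower, in paralogs 6 to 8, 1 of 8 was higher and 2 lower, and in paralogs 9 to 13 all 5 tested were lower. Across these 25 genes the log2 difference and the paralog number had a Spearman rho of −0.88, a description only, since genes of a cluster are neighbours and all values come from the same libraries.

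Hoxb2, Hoxb3 and Hoxb4, genes of the hindbrain and neck, showed the largest rises. Hoxb3 stood at 7.12 CPM in the lowest, 8.86 in the median and 9.31 in the highest diaphragm library, and at 0.263, 0.926 and 1.68 CPM over the limb libraries. Hoxb2 stood at 4.13, 5.71 and 6.62 CPM in diaphragm and at 0.132, 0.574 and 2.01 in limb. Hoxb4 stood at 5.70, 7.47 and 8.08 CPM in diaphragm and at 0.310, 0.913 and 1.76 in limb. For all 3 genes every diaphragm library was above every limb library. The log2 differences were 3.18 ± 0.17 for Hoxb3 (edgeR, adjusted p = 2.92e-14), 3.17 ± 0.17 for Hoxb2 (3.22e-14) and 3.06 ± 0.16 for Hoxb4 (3.74e-14). Of the exon bases of Hoxb3, 52.9% lie opposite the antisense gene Hoxb3os, as do 27.3% of those of Hoxb2; the kit keeps strand, but no source used here says whether the counting used it.

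In the Hoxa cluster the low-numbered genes rose less. Hoxa2, which patterns the second pharyngeal arch, stood at 8.62, 9.12 and 11.5 CPM (lowest, median and highest) in diaphragm and at 0.744, 1.86 and 3.75 in limb. Hoxa5 stood at 11.2, 19.2 and 27.7 CPM in diaphragm and at 1.74, 6.10 and 7.20 in limb. Hoxa3, needed for the thymus and parathyroid, stood at 13.3, 17.3 and 18.6 CPM in diaphragm and at 2.30, 6.07 and 9.86 in limb. None of these 3 overlapped between diaphragm and limb. Their log2 differences were 2.36 ± 0.14 for Hoxa2 (edgeR, adjusted p = 3.12e-13), 2.04 ± 0.12 for Hoxa5 (1.69e-13) and 1.60 ± 0.11 for Hoxa3 (3.25e-12). For Hoxa3, 25.4% of the exon bases lie opposite other annotated transcripts, and for Hoxa2, 15.0% are shared with a gene on its strand.

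Hoxc6, a gene of the upper chest level, passed close to the 2-fold limit. It stood at 4.05, 6.82 and 9.47 CPM in diaphragm and at 1.21, 2.82 and 8.89 in limb (log2 1.09 ± 0.16, edgeR, adjusted p = 3.22e-06). The groups overlapped because quadriceps was as high as diaphragm. The Hoxc6 call was lost without diaphragm column 4.

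The lower genes were led by paralogs 9 and 10. Hoxc10 stood at 53.7, 62.7 and 69.6 CPM in wild-type quadriceps, at 45.2, 50.9 and 60.2 in tibialis anterior and at 34.2, 39.3 and 44.3 in gastrocnemius. In the diaphragm Hoxc10 had 0 counts in 3 libraries, 1 count in 2 libraries and 12 counts in column 0, which is 1.03 CPM. Every limb library was thus above every diaphragm library. The log2 difference was −8.13 ± 0.29 (edgeR, adjusted p = 1.44e-17), and −12.61 to −7.81 over the other fits, so its size rests on these 14 counts. The limb mean was 300.7-fold the pooled diaphragm level (95% exact Poisson interval 179 to 550, counting error of the diaphragm counts only), and 1805-fold (499.7 to 14900) without column 0, which leaves 2 counts.

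Hoxa10 stood at 21.6, 24.8 and 26.1 CPM in quadriceps, at 31.4, 34.7 and 36.8 in tibialis anterior, at 28.4, 29.3 and 35.5 in gastrocnemius and at 0.092, 0.340 and 0.856 in diaphragm. Hoxa9 stood at 35.6, 37.4 and 45.5 CPM in quadriceps, at 34, 40.3 and 46.1 in tibialis anterior, at 25.9, 28.1 and 30.4 in gastrocnemius and at 0.598, 0.725 and 1.97 in diaphragm. Neither gene overlapped between diaphragm and limb, and the highest diaphragm value of both was column 0, the library that also held the 12 Hoxc10 counts. The log2 differences were −6.31 ± 0.18 for Hoxa10 (edgeR, adjusted p = 1.28e-19) and −5.27 ± 0.16 for Hoxa9 (7.85e-19).

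The other 4 lower genes differed by less. Hoxa7, a gene of the chest level, stood at 5.47, 6.76 and 7.53 CPM in diaphragm and at 9.55, 23.6 and 34 in limb, and Hoxb9 at 0.539, 0.730 and 0.802 in diaphragm and at 1.78, 2.93 and 3.97 in limb. Neither overlapped, and 20.4% of the exon bases of Hoxa7 lie opposite the antisense gene Hoxaas3. Their log2 differences were −1.66 ± 0.11 (edgeR, adjusted p = 1.53e-12) and −2.04 ± 0.17 (1.37e-10). Hoxc8 stood at 0.154, 0.609 and 1.80 CPM in diaphragm and at 1.24, 2.92 and 8.99 in limb, and Hoxd9 at 2.54, 3.28 and 4.36 in diaphragm and at 1.5, 11.4 and 15.8 in limb. These 2 overlapped. For Hoxd9 the quadriceps mean was below the diaphragm mean (1.135 against 1.531 CPM per kb), so its call rests on tibialis anterior and gastrocnemius. The log2 differences from the limb mean were −2.17 ± 0.26 for Hoxc8 (edgeR, adjusted p = 7.38e-08) and −1.11 ± 0.13 for Hoxd9 (4.2e-08).

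**Figure D2:**
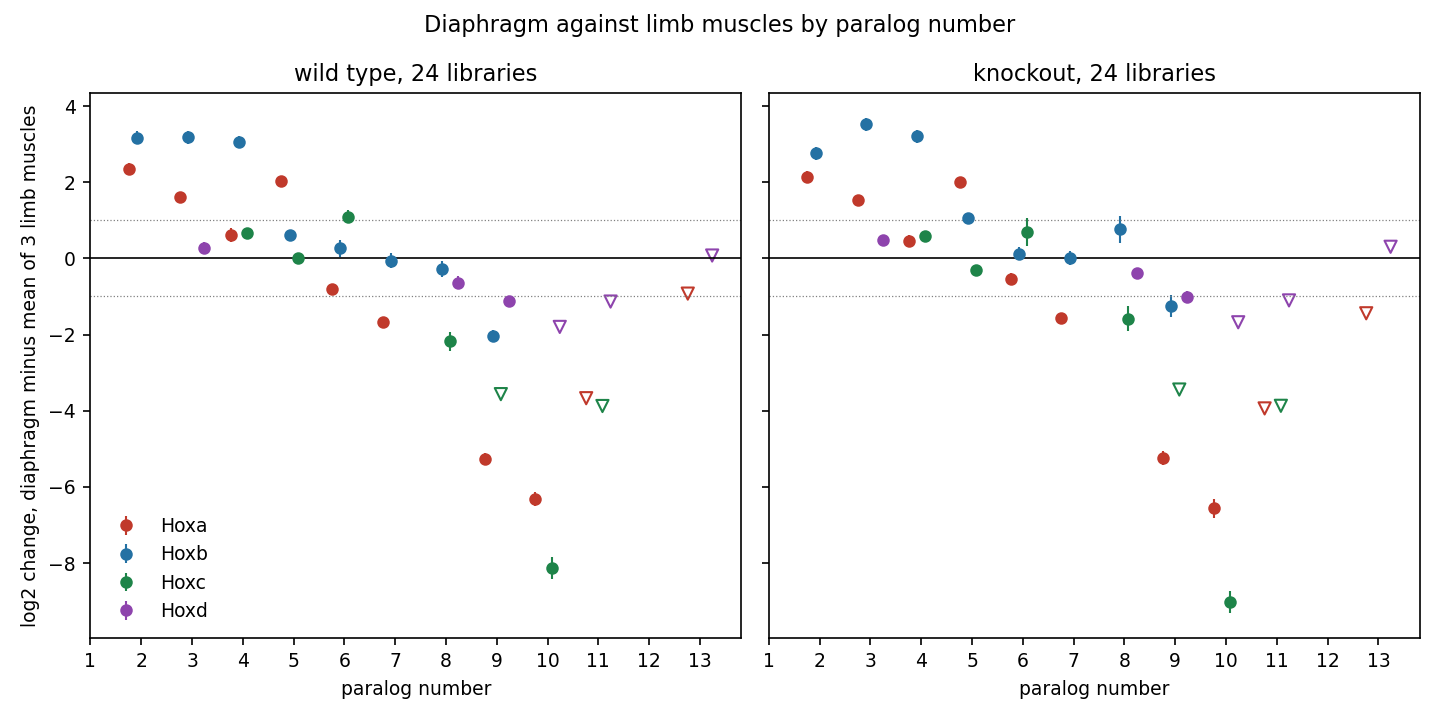
log2 difference between diaphragm and the mean of the 3 limb muscles for the Hox genes against their paralog number, in 24 wild-type libraries (left) and 24 knockout libraries (right). Filled points are fitted values ± SE for 24 of the 25 genes in all tables, open triangles are genes left out of the diaphragm or another table set to 9 counts there, dotted lines mark a 2-fold difference, and points fall from 3.18 for Hoxb3 to −8.13 for Hoxc10 in wild type.

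By library, 6 of the 25 genes had all diaphragm values above all limb values, 5 had them all below and 14 overlapped. Over all 15192 genes in the 4 tables, 8.18% had all diaphragm values above and 6.88% all below. Not called were 10 genes. Of these Hoxa4 (log2 0.62 ± 0.18), Hoxc4 (0.66 ± 0.11), Hoxb5 (0.60 ± 0.15), Hoxa6 (−0.82 ± 0.15) and Hoxd8 (−0.64 ± 0.17) had adjusted p under 0.05 (edgeR) with less than a 2-fold difference. Hoxb6, Hoxb7, Hoxb8, Hoxc5 and Hoxd3 had log2 values between −0.29 and 0.28 with adjusted p from 0.121 to 0.908. For Hoxd3, 62.3% of the exon bases are shared with other genes on its strand, so its counts are uncertain.

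All 7 Hox genes outside this test were absent from the diaphragm table, and 6 of them belong to paralogs 10 to 13. Against the most that 9 counts allow in the diaphragm, Hoxa11 (16.3, 18.9 and 21.2 CPM in tibialis anterior) was at least 26.9-fold higher in tibialis anterior, 17.7-fold in gastrocnemius and 3.88-fold in quadriceps. Hoxc11 was at least 24.7-fold higher in gastrocnemius, 16.6-fold in tibialis anterior and 6.96-fold in quadriceps, and Hoxc9 at least 16.9-fold, 9.3-fold and 9.49-fold higher in quadriceps, tibialis anterior and gastrocnemius. Hoxa13 was at least 4.94-fold higher in tibialis anterior and 2.77-fold in gastrocnemius. For quadriceps Hoxa13, and for Hoxd13 anywhere, the limb mean was too near that limit to give a fold. These bounds are a description, since such genes are here only through their limb counts.

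The knockout libraries were a separate set of samples. There 7 of the 25 Hox genes were higher in diaphragm (6.63% of all genes) and 7 lower (3.40%), with a median of 0.47 over the Hox genes and 0.01 over all 14896 genes tested. All 15 Hox genes called in wild type had the same sign in knockout, and 13 were called in both. No such count over all genes is given here, so it is not shown to be particular to Hox genes. Among the calls that differed were Hoxc6, called in wild type and not in knockout, and Hoxb5, called in knockout and not in wild type (2.35, 2.66 and 3.34 CPM in diaphragm, log2 1.06 ± 0.13, edgeR, adjusted p = 1.66e-07). In knockout Hoxb3 had a log2 difference of 3.52 ± 0.16 (edgeR, adjusted p = 1.56e-14), Hoxb4 3.20 ± 0.18, Hoxb2 2.75 ± 0.17, Hoxc10 −9.02 ± 0.30 and Hoxa10 −6.57 ± 0.25. Whether the diaphragm-limb difference depended on genotype was tested in 1 fit of all 48 libraries. It was called for 0 of 25 Hox genes and 0% of all 15090 genes. An unadjusted p under 0.05 (edgeR) was reached by 3 Hox genes and by 460 of all genes. The lowest p of a Hox gene was 0.0196 unadjusted, and the lowest adjusted p was 0.9998. That fit may treat muscles of 1 animal as independent samples.

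Some diaphragm libraries held transcripts of other tissues. Keratin 5 (Krt5), a gene of the skin list, had 3694 and 1418 counts in wild-type columns 1 and 2 and 1501 and 1816 in knockout columns 0 and 3, and 0 to 4 counts in the other diaphragm libraries. The whole skin list (Krt5, Krt14, Krt1, Krt10) summed to 198 and 144 CPM in wild-type columns 1 and 2. Most of that was Krt5, at 170 and 121 CPM. In the other wild-type diaphragm libraries the list summed to 12.8 to 16.5 CPM. Krt1 had no counts listed for diaphragm. Pitx1, a hindlimb regulator, had 418 and 128 and 181 and 238 counts in the 4 libraries with Krt5 and 0 to 2 in the others. Tbx4, another hindlimb gene, stood at 3.22, 2.64, 3.19 and 2.43 CPM in these 4, within the 1.67 to 3.96 of the other diaphragm libraries. The tissue these transcripts came from was not tested. Tubb3, a neuron gene, was highest in wild-type column 0 with 739 counts, and the neuron list (Elavl3, Tubb3, Snap25) summed to 3.08 to 88.4 CPM over the wild-type diaphragm libraries. Without wild-type columns 0, 1 and 2, a choice made after seeing the data, 7 Hox genes were higher and 7 lower. Without knockout columns 0 and 3 the knockout comparison gave 7 higher and 7 lower. Its Hoxd9 call was lost without knockout diaphragm column 0 (log2 −0.93) and without knockout columns 0 and 1 of all muscles (−0.84), both below the 2-fold limit. The 4 liver genes and the mesothelium gene tested were higher in diaphragm, whose liver list summed to 285 to 4330 CPM against 0.75 to 18.4 in limb; the part of these tissues in the Hox values was not tested. Of the 6 fibroblast genes edgeR called 0 at the 2-fold limit, although all 6 had an unadjusted p under 0.05 (median log2 −0.42), with sums of 19850 to 22480 CPM in diaphragm and 22080 to 35450 in limb, and of the 3 muscle progenitor genes 1 was lower in diaphragm (39.9 to 61.9 CPM in sum against 90.4 to 123.5). Of the other marker genes tested, the 3 erythroid genes were higher in diaphragm, 1 of 5 skeletal muscle, 1 of 4 tendon, 2 of 4 cartilage and bone and 1 of 3 Schwann cell genes were lower, and no endothelium or macrophage gene was called. With all libraries, 7.00% of all genes were higher and 3.53% lower in this wild-type comparison, and 6.63% and 3.40% in knockout. In wild type 9056 of all 14831 genes had an unadjusted p under 0.05 (edgeR).

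Some Hox genes also differed between limb muscles. In wild type, 4 of 25 were higher in quadriceps than tibialis anterior (0.863% of all genes) and 3 were lower (1.20%). Against gastrocnemius, quadriceps was higher for 14 (9.31% of all genes) and lower for 3 (5.27%). Tibialis anterior was higher than gastrocnemius for 8 (11.5% of all genes) and lower for 1 (7.32%). These calls needed an adjusted p under 0.05 and no fold limit. In wild type the cartilage and bone list had median sums of 837 CPM in quadriceps, 135 in tibialis anterior and 160 in gastrocnemius. Single libraries ran from 102 to 1302, 96.8 to 172 and 28.7 to 534 CPM. For the Schwann cell list the medians were 165, 82.1 and 246 CPM, and for the endothelium list 582, 635 and 571 CPM. The part of these tissues in the Hox differences between limb muscles was not tested.

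Hoxc genes of the chest level and Hoxb2 were highest in the quadriceps among the limb muscles. Hoxc8 stood at 5.96, 7.53 and 8.99 CPM (lowest, median and highest) in quadriceps, at 1.24, 2.06 and 2.32 in tibialis anterior and at 2.10, 2.92 and 3.6 in gastrocnemius. Hoxc6 stood at 5.79, 6.66 and 8.89 CPM in quadriceps, at 1.21, 1.89 and 2.84 in tibialis anterior and at 1.57, 2.55 and 3.22 in gastrocnemius. In both genes every quadriceps library was above every library of the lower leg. Quadriceps exceeded tibialis anterior by log2 1.96 ± 0.24 for Hoxc8 (edgeR, adjusted p = 1.2e-05) and 1.87 ± 0.22 for Hoxc6 (7.31e-06), and gastrocnemius by 1.39 ± 0.23 (0.000127) and 1.51 ± 0.21 (1.63e-05).

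Hoxb2 stood at 0.922, 1.19 and 2.01 CPM in quadriceps, at 0.132, 0.320 and 0.606 in tibialis anterior and at 0.263, 0.489 and 0.783 in gastrocnemius, again without overlap (log2 1.80 ± 0.28 against tibialis anterior, edgeR, adjusted p = 0.000305). Hoxc4, a neck-level gene, stood at 9.68, 11.4 and 15.7 CPM in quadriceps and at 5.92, 7.09 and 9.84 in tibialis anterior, which overlapped at 1 end (log2 0.65 ± 0.13, edgeR, adjusted p = 0.00682).

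Hoxd9 went the other way. It stood at 1.5, 2.54 and 3.06 CPM in quadriceps, at 9.17, 12.1 and 13.4 in tibialis anterior and at 11, 13.1 and 15.8 in gastrocnemius. No quadriceps library reached either lower leg muscle, while the lower leg muscles overlapped. Quadriceps was lower by log2 −2.23 ± 0.15 than tibialis anterior (edgeR, adjusted p = 5.37e-10) and by −2.40 ± 0.15 than gastrocnemius (2.98e-11). Lower in quadriceps than in tibialis anterior were also Hoxd3 (log2 −0.79 ± 0.19, edgeR, adjusted p = 0.0231) and Hoxa10 (−0.49 ± 0.11, 0.0154). The Hoxd3 call was lost without quadriceps column 2 or 3 or tibialis anterior column 1 (adjusted p up to 0.0692), and the Hoxa10 call without quadriceps column 5 (0.0501).

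Several Hoxa genes and Hoxd8 set the gastrocnemius apart from both other limb muscles. Hoxa2, Hoxa3, Hoxa4, Hoxa5, Hoxa6, Hoxa7 and Hoxa9 were each lower in gastrocnemius than in quadriceps and than in tibialis anterior, by log2 0.50 to 1.34 and 0.53 to 1.46. The largest of these was Hoxa5, at 5.12, 6.25 and 7.12 CPM in quadriceps, 6.27, 6.75 and 7.20 in tibialis anterior and 1.74, 2.50 and 3.08 in gastrocnemius. Hoxa6 stood at 2.60, 3.42 and 4.26, at 2.69, 3.26 and 3.76 and at 0.854, 1.45 and 1.98 CPM in these muscles. In both genes the gastrocnemius libraries lay below all others. The differences from tibialis anterior were 1.46 ± 0.17 for Hoxa5 (edgeR, adjusted p = 8.43e-07) and 1.17 ± 0.17 for Hoxa6 (1.69e-05).

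Hoxd8 was the reverse, at 15.0, 16.8 and 22.7 CPM in gastrocnemius. Its quadriceps libraries stood at 4.87, 5.96 and 11.1 CPM, its tibialis anterior libraries at 5.45, 7.62 and 11.5, and gastrocnemius overlapped with neither. Quadriceps was lower by log2 −1.41 ± 0.19 (edgeR, adjusted p = 1.22e-05) and tibialis anterior by −1.22 ± 0.19 (3.8e-05). Also higher in quadriceps than gastrocnemius were Hoxc10 (log2 0.65 ± 0.16), Hoxc5 (0.82 ± 0.15), Hoxc4 and Hoxb2 (1.34 ± 0.26), and lower was Hoxd3 (−0.63 ± 0.19). The Hoxd3 call was lost without quadriceps column 3 or gastrocnemius column 2, 4 or 5 (adjusted p up to 0.0703). Of the exon bases of Hoxc10, 8.7% are shared with Hoxc5.

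The Hox11 and Hox13 groups, absent from the diaphragm table, could be tested in the 18 wild-type limb libraries alone, a fit chosen after seeing the data that covered 29 Hox genes. Hoxa11, of the middle limb segment, stood at 2.10, 2.58 and 3.68 CPM in quadriceps, at 16.3, 18.9 and 21.2 in tibialis anterior and at 10.5, 11.8 and 15.6 in gastrocnemius. Hoxa13, of the foot, stood at 0.173, 0.229 and 0.755 CPM in quadriceps, at 2.88, 3.26 and 4.44 in tibialis anterior and at 1.77, 1.88 and 2.17 in gastrocnemius. No library of one muscle reached those of another in either gene. Quadriceps was lower than tibialis anterior by log2 −2.78 ± 0.13 for Hoxa11 (edgeR, adjusted p = 3.54e-11) and −3.44 ± 0.24 for Hoxa13 (1.09e-08). Tibialis anterior exceeded gastrocnemius by 0.59 ± 0.11 (7.42e-04) and 0.82 ± 0.18 (0.00253). Of the exon bases of Hoxa11, 35% lie opposite the antisense gene Hoxa11os.

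Hoxc11 rose from quadriceps (3.80, 4.78 and 6.06 CPM) through tibialis anterior (9.88, 11.3 and 13.5) to gastrocnemius (14.8, 17.2 and 19.4), and the 3 muscles did not overlap. Tibialis anterior was lower than gastrocnemius by log2 −0.59 ± 0.11 (edgeR, adjusted p = 3.68e-04). Hoxc9 was higher in quadriceps, at 9.73, 12.3 and 13.1 CPM against 6.07, 6.27 and 7.12 in tibialis anterior (log2 0.87 ± 0.09, edgeR, adjusted p = 8.7e-06), and tibialis anterior and gastrocnemius did not differ by the test (log2 −0.04 ± 0.10, adjusted p = 0.824). In this fit, which changed both the libraries and the genes, quadriceps against tibialis anterior had 6 higher and 6 lower (1.01% and 1.48% of all genes), quadriceps against gastrocnemius 15 and 7 (9.52% and 6.97%), and tibialis anterior against gastrocnemius 12 and 3 (11.7% and 9.10%). Some calls gained were of genes in all tables. Hoxc8 became lower in tibialis anterior than in gastrocnemius, and Hoxa10 lower in quadriceps than in gastrocnemius.

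Hoxd10 and Hoxd11 were left out of the quadriceps table. Hoxd10 stood at 2.90, 4.29 and 4.96 CPM in tibialis anterior and at 4.83, 5.49 and 7 in gastrocnemius, at least 7.72-fold and 10.4-fold above what 9 counts allow in quadriceps. Hoxd11 stood at 1.39, 1.91 and 2.44 and at 2.36, 3.04 and 3.81 CPM, at least 3.5-fold and 5.76-fold above it. With only the 2 lower leg muscles in the fit, Hoxd11 was lower in tibialis anterior by log2 −0.71 ± 0.18 (edgeR, adjusted p = 0.0115) and Hoxd10 was not called (−0.43 ± 0.15, adjusted p = 0.0585); that fit had 4 Hox genes lower in tibialis anterior, against 7.47% of all genes. Hoxd13 overlapped between quadriceps, with 0.403, 0.664 and 1.08 CPM, and tibialis anterior, with 0.202, 0.621 and 1.33 CPM.

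**Figure D3:**
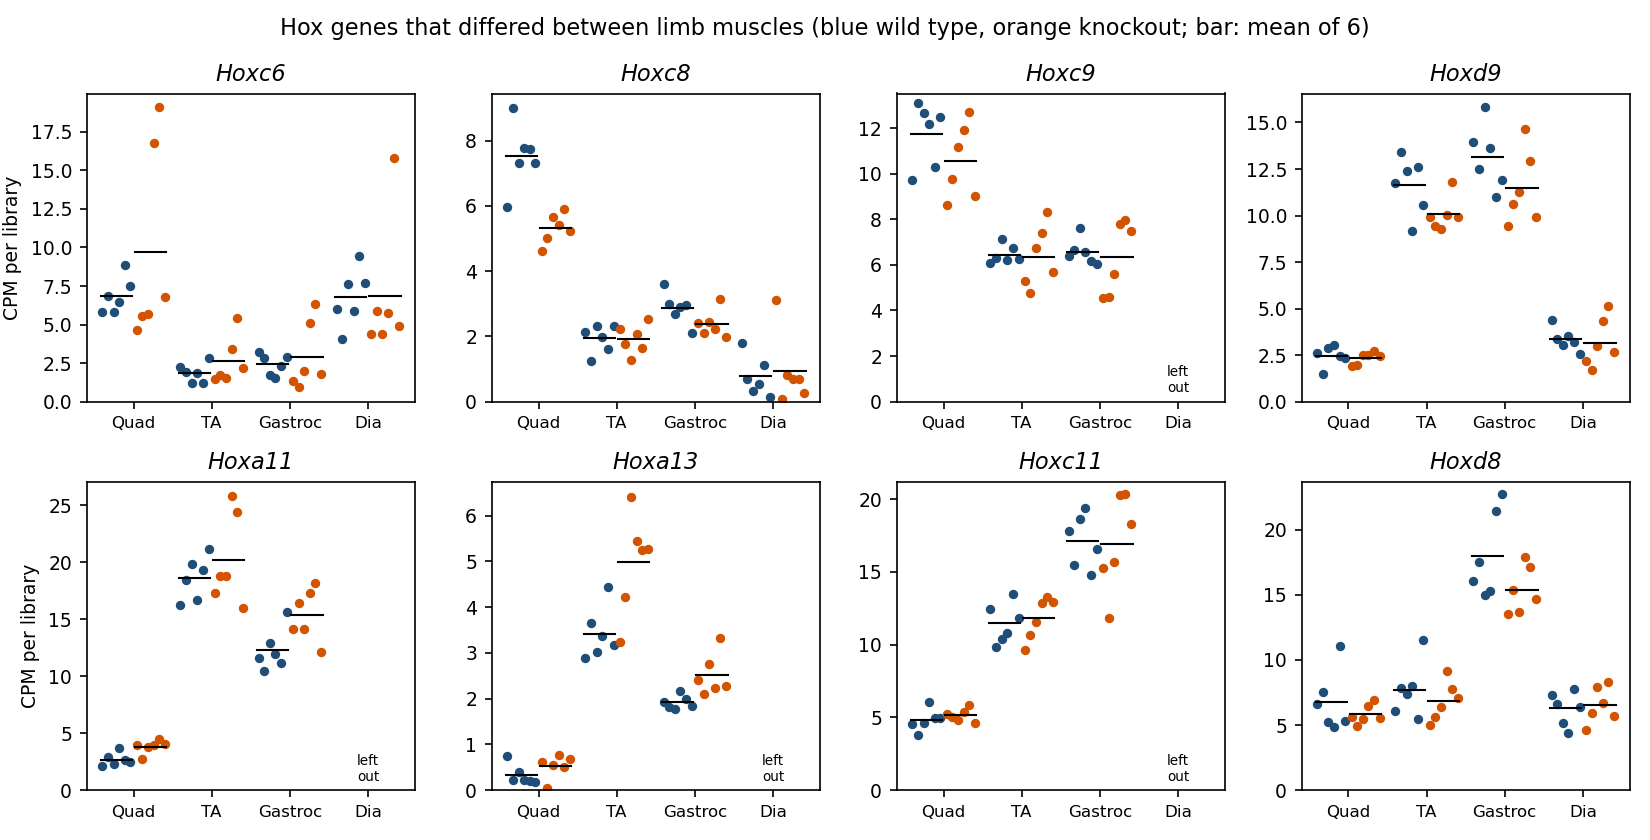
CPM in each library for 8 Hox genes that differed between limb muscles, by muscle, with wild type in blue, knockout in orange and a bar at the mean of 6 libraries. Among the limb muscles Hoxc6, Hoxc8 and Hoxc9 are highest in quadriceps, Hoxd9, Hoxa11, Hoxa13 and Hoxc11 lowest there, and Hoxd8 stands out in gastrocnemius; "left out" marks a gene absent from the diaphragm table.

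In the knockout libraries 5 Hox genes were called between quadriceps and tibialis anterior (0.691% of all genes), 15 between quadriceps and gastrocnemius (7.89%) and 7 between tibialis anterior and gastrocnemius (11.4%). All wild-type Hox calls kept their sign, 7 of 7, 17 of 17 and 9 of 9, and 5, 14 and 7 of them were called in both genotypes. Here too no count over all genes is given, so this is not shown to be particular to Hox genes. Hoxc6 was not called between quadriceps and tibialis anterior (log2 1.87 ± 0.48, edgeR, adjusted p = 0.0745), with a wide spread between knockout libraries, but DESeq2, limma voom and the fit with 0 counts for left-out genes called it. Hoxd9 kept a log2 difference of −2.08 ± 0.19 (edgeR, adjusted p = 3.68e-07). Hoxa10 was not called in knockout (−0.45 ± 0.17, adjusted p = 0.419).

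The knockout libraries of equal column number deviated together across muscles, so a fit with the column number as a replicate block was added after seeing the data. With the block 10 Hox genes were called between quadriceps and tibialis anterior (4.46% of all genes), 18 between quadriceps and gastrocnemius (30.4%) and 10 between tibialis anterior and gastrocnemius (34.8%). Between quadriceps and tibialis anterior the calls gained were Hoxc6 (log2 1.87 ± 0.18, edgeR, adjusted p = 6.33e-07), Hoxa10 (−0.45 ± 0.08, 0.00119), Hoxc5 (0.53 ± 0.10, 0.00161), Hoxb3 (0.94 ± 0.25, 0.0331) and Hoxc10 (0.25 ± 0.07, 0.0456). Against gastrocnemius quadriceps gained Hoxa9 (0.31 ± 0.08, 0.00514), Hoxb2 (0.78 ± 0.24, 0.0169) and Hoxa10 (−0.34 ± 0.08, 0.00279), and tibialis anterior gained Hoxa9 (0.33 ± 0.08, 0.00229), Hoxc10 (0.27 ± 0.07, 0.0054) and Hoxc4 (−0.24 ± 0.08, 0.0287).

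The study asked what loss of Myh3 changes in each muscle. For the Hox genes no difference between knockout and wild type was called by edgeR in any muscle. In quadriceps 0 of 29 tested were called (0% of all genes, 2 Hox genes at an unadjusted p under 0.05), in tibialis anterior 0 of 29 (0.0973% of all genes, 1 at unadjusted p under 0.05), in gastrocnemius 0 of 29 (0.157%, 3) and in diaphragm 0 of 19 (0.00690%, 1). Of all genes tested, that unadjusted p (edgeR) was reached by 1020 of 14710 in quadriceps and 1091 of 14383 in tibialis anterior. In gastrocnemius it was reached by 979 of 14611 and in diaphragm by 604 of 14487. In single muscles limma voom called 0 Hox genes and DESeq2 called 1. For the change shared by the 4 muscles, 0 of 25 Hox genes were called while 7.64% of all 15090 genes were. An unadjusted p under 0.05 (edgeR) was reached by 2 Hox genes and by 3365 of all genes. Whether the change differed between muscles was called for 0 of 25 Hox genes (0.0133% of all genes). The fit of the shared change and the fit of this difference may both treat muscles of 1 animal as independent samples. Their p-values and shares of genes called carry that limit.

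In quadriceps the smallest p belonged to Hoxc8, at 5.96, 7.53 and 8.99 CPM in wild type and 4.62, 5.32 and 5.90 in knockout. All knockout libraries were below all wild-type ones. The log2 change was −0.49 ± 0.12 (edgeR, unadjusted p = 0.00083, adjusted p = 0.225). DESeq2 called it (adjusted p = 0.0277), and the authors' deposited table gives it a log2 ratio of −0.40 with adjusted p 0.0215, the only Hox gene under 0.05 in their 4 tables. In the other muscles its log2 change was −0.01 ± 0.21 (tibialis anterior) and −0.26 ± 0.17 (gastrocnemius), and the difference between muscles was not called. Next in quadriceps came Hoxa11 (log2 0.51 ± 0.17, adjusted p = 0.472) and Hoxa5 (0.21 ± 0.13, 0.883).

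Hoxa13 had the smallest p in tibialis anterior, with 2.88, 3.26 and 4.44 CPM in wild type and 3.24, 5.26 and 6.42 in knockout, which overlapped (log2 0.54 ± 0.17, edgeR, adjusted p = 0.365). It passed without knockout columns 0 and 1 (log2 0.71, adjusted p = 0.0359). After it came Hoxd9 (−0.20 ± 0.11, adjusted p = 0.75) and Hoxb5 (−0.34 ± 0.19, 0.772). In gastrocnemius the 3 smallest p belonged to Hoxc5 (0.34 ± 0.11, adjusted p = 0.404), Hoxa11 (0.33 ± 0.12, 0.574) and Hoxa13 (0.39 ± 0.16, 0.639). Hoxc5 there stood at 5.36, 6.53 and 6.70 CPM in wild type and 7.43, 7.58 and 8.91 in knockout, without overlap. In diaphragm they were Hoxb2 (−0.33 ± 0.15), Hoxa2 (−0.28 ± 0.14) and Hoxa3 (−0.22 ± 0.11), all with adjusted p of 0.9996. Over the 4 muscles Hoxa4 (−0.27 ± 0.11, adjusted p = 0.112) and Hoxa3 (−0.18 ± 0.07, 0.117) came first, in the fit that may treat muscles of 1 animal as independent.

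**Figure D4:**
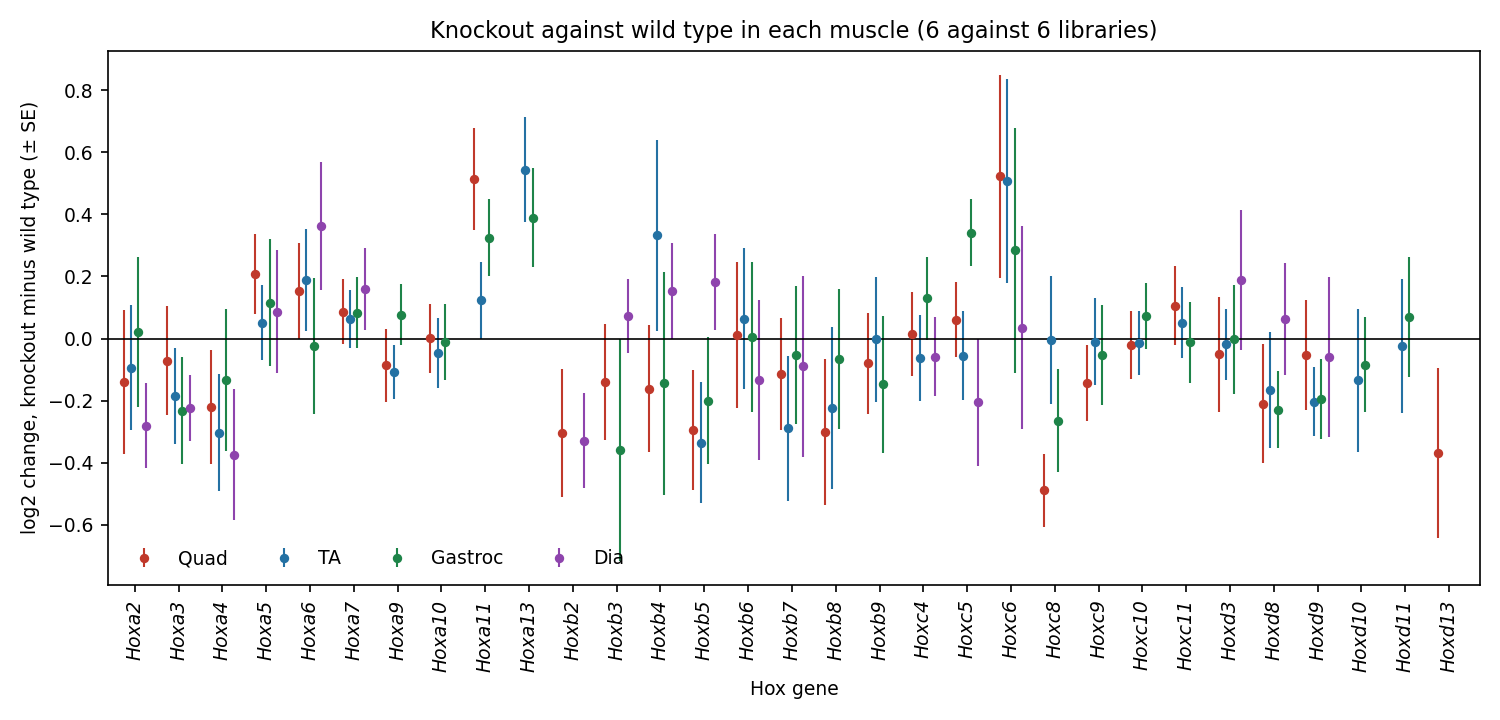
log2 change between knockout and wild type (6 against 6 libraries) for the Hox genes tested, in the 4 muscles, with bars of ± SE. All points lie between −0.49 (Hoxc8 in quadriceps) and 0.54 (Hoxa13 in tibialis anterior), and no point passed adjusted p 0.05.

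Hoxc6 was uneven among the knockout libraries. Knockout columns 3 and 4 held 16.8 and 19.1 CPM of Hoxc6 in quadriceps, where the other 4 held 4.62 to 6.76. In tibialis anterior they held 3.39 and 5.41 CPM, and in gastrocnemius 5.10 and 6.32 CPM, again above the other knockout libraries. In diaphragm only column 4 was high, at 15.8 CPM. No label ties the columns to animals. In knockout diaphragm column 0 Hoxb8 had 72 counts (5.47 CPM), Hoxb9 41 and Hoxc8 41 (3.12 CPM each), each the highest of its group. This library also held the keratin 5 and Pitx1 counts given above. Column 3 held more of both (1816 and 238 counts), with Hoxb8 and Hoxb9 at most 1.21 CPM. The neuron list summed to 37.71 CPM in column 0 and 24.65 in column 3. Lmx1b, a limb gene, had 21 counts in column 0 and 0 to 4 in the other knockout diaphragm libraries. In wild-type diaphragm the neuron list reached 88.4 CPM and Hoxb8 at most 1.41 CPM. The part of these tissues in the Hox values was not tested.

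**Figure D5:**
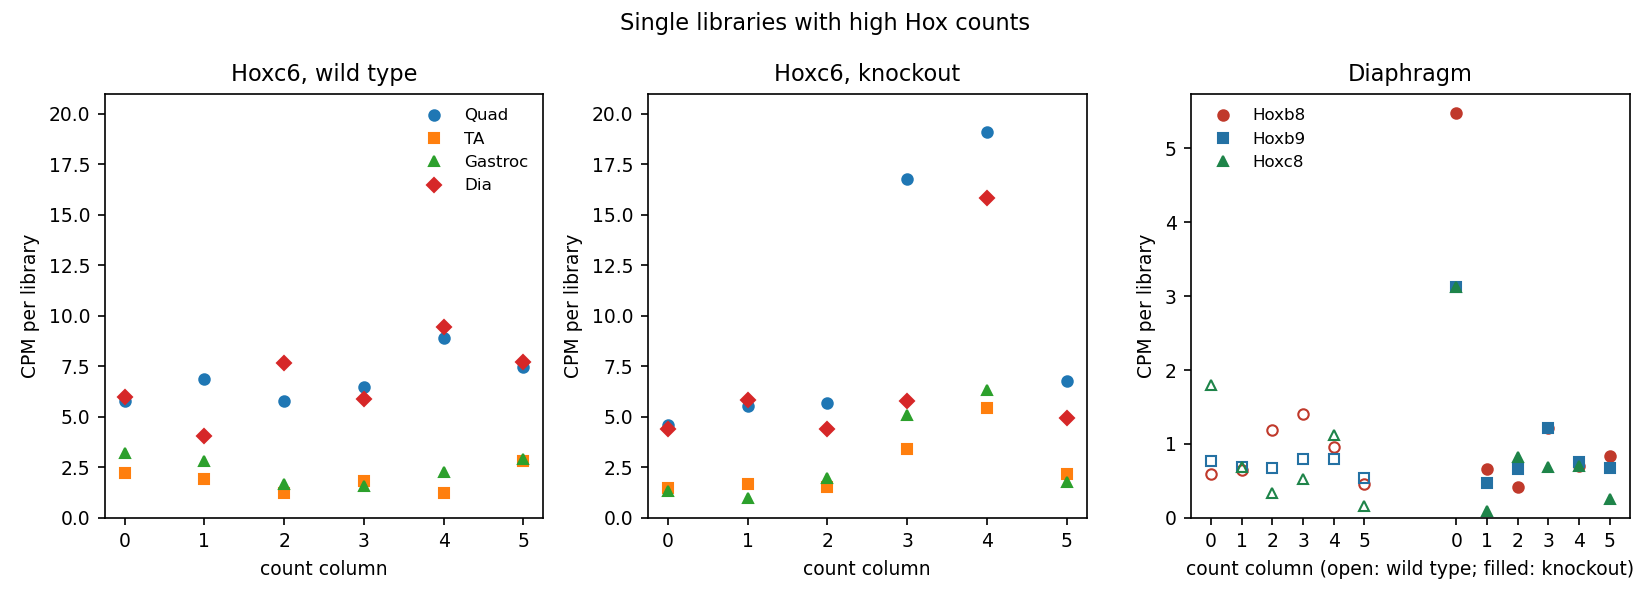
CPM of Hoxc6 by count column in wild type (left) and knockout (middle) for the 4 muscles, and of Hoxb8, Hoxb9 and Hoxc8 in the diaphragm (right; open wild type, filled knockout). Knockout columns 3 and 4 hold the highest knockout Hoxc6 values of each limb muscle, and knockout diaphragm column 0 the highest Hoxb8 value, 5.47 CPM.

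Hox proteins bind DNA with Pbx, Meis and Pknox partners. Of these 9 cofactor genes 2 were higher in wild-type diaphragm (7.00% of all genes) and 0 lower (3.53%), with a median log2 of 0.20. Meis2 stood at 26.7, 31.4 and 36.6 CPM in diaphragm, at 4.61, 5.39 and 6.25 in quadriceps, at 0.66, 0.944 and 1.52 in tibialis anterior and at 5.94, 7.58 and 8.87 in gastrocnemius. Its diaphragm libraries were above all limb libraries and its tibialis anterior libraries below all others. The log2 difference was 3.16 ± 0.10 between diaphragm and limb (edgeR, adjusted p = 2.23e-18), 2.35 ± 0.17 between quadriceps and tibialis anterior (2.51e-09) and −2.81 ± 0.17 between tibialis anterior and gastrocnemius (9.25e-12). Meis1 was the other, at 20.4, 29.8 and 35.8 CPM in diaphragm (log2 1.04 ± 0.09, adjusted p = 1.50e-10). Of 15 tested genes that set Hox expression, such as the Polycomb genes Ezh2 and Bmi1 and retinoic acid enzymes, edgeR called 0 in the diaphragm comparison at the 2-fold limit (median −0.18), and 9 had an unadjusted p under 0.05. That p was reached by 9056 of all 14831 genes. In knockout against wild type edgeR called 0 of 9 cofactors and 0 of 15 of these regulators in any single muscle, with 0 to 1 and 0 to 2 at an unadjusted p under 0.05. Of all genes tested, 604 of 14487 in diaphragm, the fewest, and 1091 of 14383 in tibialis anterior, the most, reached that p. Over the 4 muscles 1 regulator was lower, as were 403 of all 15090 genes.

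Genes that mark limb position checked the muscle labels: 5 of 8 tested were lower in wild-type diaphragm (3.53% of all genes) and 1 was higher (7.00%). Tbx4, a hindlimb gene, stood at 2.64, 3.24 and 3.96 CPM in diaphragm and at 15.7 CPM or more in every limb library (log2 −2.67 ± 0.11, edgeR, adjusted p = 2.56e-16). Lmx1b, which marks the back (dorsal) side of the limb, stood at 10.8, 14 and 15.1 CPM in tibialis anterior, 6.04, 6.68 and 8.56 in quadriceps, 1.5, 2.07 and 2.26 in gastrocnemius and 0.077, 0.126 and 0.340 in diaphragm, with no overlap. Lhx2, of the same list, went the other way, at 1.46, 2.08 and 2.74 CPM in diaphragm and at most 0.857 in limb libraries. Pitx1 stood at 11 to 20.5 CPM in limb libraries (log2 −1.5 ± 0.54, edgeR, adjusted p = 0.0197), its diaphragm counts being the ones given above. In diaphragm columns 1 and 2 these counts were 19.2 and 10.9 CPM, about the limb level, and in the others at most 0.176 CPM. Tbx5, a forelimb gene, was in the quadriceps (3.33, 4.00 and 6.34 CPM) and diaphragm (2.40, 3.23 and 5.96 CPM) tables and not in the other 2.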

How the data were processed

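Strand-specific poly(A) RNA-seq libraries were made per the labels' protocols. Per the file headers the deposited tables came from USeq on mm10 and hold, per muscle, the authors' raw counts over gene exons, their log2 ratios and their adjusted p-values as a −10 log10 score; the submitters' processing notes name Picard, and the aligner and counting strand are not given in the sources used here. The deposited files also hold other columns of normalized values, and 96 columns of per-sample values were not used. Per the deposited tables, the authors kept genes with at least 10 counts in 1 library.

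From the counts, filterByExpr, TMM factors and edgeR 4.0.16 quasi-likelihood tests (R 4.3.3) were run over all genes with Benjamini-Hochberg adjustment at 0.05, the diaphragm comparison also asking for 2-fold. The 24 libraries of a genotype shared 1 fit over the 15192 genes in all tables, knockout tests used the 12 libraries of a muscle, and SE is the log2 difference over the root of F. CPM used TMM library sizes. DESeq2 1.42.0, limma 3.58.1 voom, other normalization, no filter and leaving out libraries were alternatives. The tests were checked on simulated data. Replicates differed by more than sampling noise (chi-square per degree of freedom 5.33 to 78.7 over 120 pairs). Deviations from the group mean correlated between knockout libraries of equal column number in 36 of 36 pairs of libraries of 2 muscles (r 0.49 to 0.88, each library correlating most with its own number), and in wild type r ran from −0.58 to 0.82; the pairing comes from the data, as no label ties columns to animals. The Hox genes and lists were chosen with earlier results of these data known. Values per library were given for called Hox genes, up to 6 a direction between limb muscles, and the 3 smallest p values for knockout. Values of 1 Hox gene are not reported here; it is in the fits and counts.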

Additional observations from a re-analysis of the deposited data

Results flagged for a closer look

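Among 221 groups of 6 libraries, 13 held a library whose gap to the nearest other value was above Dixon's 95% critical value for the group's range; chance alone flags about 5% of groups. In knockout column 4 there were 4 such values: Hoxb4 at 11.6 CPM (others at most 8.18), Hoxc4 at 18 and Hoxc6 at 15.8 in diaphragm, and Hoxd9 at 11.8 in tibialis anterior. In knockout diaphragm column 0 Hoxb8 stood at 5.47 CPM and Hoxb9 at 3.12, against at most 1.21 in the others for both genes. In wild-type diaphragm Hoxa9 stood at 1.97 CPM in column 0 and Hoxa2 at 11.5 in column 2.

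In the limb muscles, Hoxa10 was high in wild-type gastrocnemius column 3 (35.5 CPM, others at most 30.8). Hoxb5 was high in wild-type quadriceps column 5 (2.36 CPM) and low in wild-type tibialis anterior column 5 (1.06 CPM), and Hoxb2 was high in wild-type quadriceps column 0 (2.01 CPM). Hoxa13 was low in knockout quadriceps column 1, at 0.0565 CPM from 1 count. No cause was tested for any of these values.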

How the results depend on the processing

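The replicate block on the column number, added after seeing the data, gave 7 higher in knockout quadriceps against tibialis anterior in place of 3 (2.06% of all genes) and 2 lower in tibialis anterior against gastrocnemius in place of 1 (17.5%); beside the calls given in the report it changed no other Hox call, and none in wild type. Over all alternatives no Hox result reversed. In wild type the number of lower genes moved as follows: tibialis anterior against gastrocnemius gave 2 with DESeq2 or voom in place of 1; with 0 counts for left-out genes the numbers were 8 (quadriceps against tibialis anterior), 8 (against gastrocnemius), 3 (tibialis anterior against gastrocnemius) and 11 (diaphragm); with limb muscles alone 6, 7 and 3; with the 2 muscles alone 6, 7 and 4; with 9 counts for left-out genes 12 in diaphragm. The settings without diaphragm, with 2 muscles or with 9 counts were chosen after seeing the data. They add genes that are not in all tables, and some of them also changed calls of genes that are in all tables. The calls with 0 or 9 counts test nothing of the added genes, which are there only through their limb counts and get constant values.

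In knockout, quadriceps against tibialis anterior had 6 (DESeq2, 0.577%), 5 (voom, 0.483%), 6 (0 counts, 0.782%) and 1 (without columns 0 and 1, 0.253%) higher in place of 3. Lower there were 7 (0 counts, 0.729%), 1 (without columns 0 and 1, 0.287%), 5 (limb alone, 0.561%) and 5 (2 muscles, 0.527%) in place of 2. Quadriceps against gastrocnemius had 6 higher without columns 0 and 1 (4.28%), and 8 (0 counts, 2.98%), 6 (limb alone, 3.66%) and 6 (2 muscles, 3.37%) lower. Tibialis anterior against gastrocnemius had 3 (4.98%), 2 (5.74%) and 3 (4.71%) lower in those last 3 fits. The diaphragm had 11 higher with no fold limit (26.3%), and 11 (0 counts, 4.15%) and 13 (9 counts, 3.75%) lower. Knockout against wild type gave 1 lower in quadriceps with DESeq2 (Hoxc8, 0.116%) and 1 higher in tibialis anterior without knockout columns 0 and 1 (Hoxa13, 1.05%). Shared by the muscles were 1 lower with voom (Hoxd9, 5.12%) and 2 higher with 0 counts (Hoxa11 and Hoxa13, 4.76%). Without columns 0 and 1 the shared change had 3 higher (Hoxa5, Hoxa6 and Hoxc6, 15.6%). Percentages here are shares of all genes called in the same direction in that fit. The cause was not tested.

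Leaving out 1 library at a time, the wild-type diaphragm comparison gave 7 to 8 higher and 7 lower, quadriceps against gastrocnemius 13 to 14 higher and 2 to 4 lower, quadriceps against tibialis anterior 4 higher and 2 to 3 lower, and tibialis anterior against gastrocnemius 8 to 9 higher and 1 to 2 lower (2 without tibialis anterior column 5, where 7.41% of all genes were lower). With all libraries, the shares of all genes higher and lower were 7.00% and 3.53%, 9.31% and 5.27%, 0.863% and 1.20%, and 11.5% and 7.32% in that order. Knockout against wild type in each single muscle gave 0 called in each of 12 such fits; other knockout comparisons were not run so. Diaphragm Hoxc10 rests on few counts: in the 3 wild-type libraries kept without columns 0, 1 and 2 it is at 0.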
